A study of Mus musculus with 9 samples.

Results

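Expression of Trp53, which encodes the transcription factor p53, and of 8 genes that p53 is known to induce (Mdm2, Ccng1, Zmat3, Phlda3, Trp53inp1, Aen, Sesn1 and Btg2) was examined in mouse bone marrow derived macrophages (BMDMs) exposed to medium conditioned by pulmonary artery adventitial fibroblasts. The 9 genes were taken by symbol from the 53465 rows of the raw count table, and each was matched to the row with the most reads. A second row that carries the symbol Trp53 held 0 reads and was left out. All 9 genes passed the filter on low counts, and so were among the 11950 genes tested.

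There were 9 libraries in 3 groups of 3. All cells were grown from the bone marrow of male C57BL/6 mice (the J substrain in the methods of the study) for 5 to 10 days in macrophage growth medium with CSF1 at 50 ng/ml and, per the labels, 5 mM glutamine. One group was left untreated (UNX), a second received medium conditioned by adventitial fibroblasts from distal pulmonary arteries of control neonatal calves (CO-CM), and the last received medium from such fibroblasts of calves with pulmonary hypertension induced by hypoxia (PH-CM). For the time in conditioned medium, the growth protocol of the labels states 16 h and the treatment protocol 24 h, and the methods of the study give a time between these. Those methods describe serum added to the conditioned medium, but do not state whether CSF1 was present during the exposure. The part of any difference in CSF1 from UNX was not tested. The fibroblasts were bovine and the macrophages were from mouse, no group is labelled as given medium that no fibroblasts had conditioned, and medium of each kind was pooled over several fibroblast populations. The 3 libraries of a group therefore repeat the culture of macrophages but not the calves, and p-values measure the spread between these cultures.

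p53 is a sequence-specific transcription factor that is held low in resting cells because the ubiquitin ligase encoded by Mdm2 marks it for degradation. DNA damage, nutrient shortage and disturbed ribosome assembly stabilise the protein, which then induces Mdm2 as negative feedback, together with genes for growth arrest, DNA repair, metabolism and cell death. Much of this control acts on the protein, so an mRNA level is a readout of the transcript and not of p53 activity.

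p53 binds a pair of short palindromic half-sites, each made of purines, then C, A or T at both central positions, G and pyrimidines. RefSeq promoters of GRCm38.p6, which cover the 250 bases before and 50 bases after an annotated start, were found for 7 of the 9 genes, and Zmat3 and Trp53inp1 had no entry. A full half-site stood in a promoter of 5 of those 7 (71.4%), against 9.55% of the 27025 genes in the table, while Phlda3 and Btg2 held none in this window. In the gene lists described later, the share was 28.6% of 35 other p53 targets and 14.3% of 28 regulators. It was 16.7% of 18 cell cycle genes and 0% of 13 relatives. The motif is its own reverse complement, so a match on one strand is also a match on the other. The 30-base stretches below are printed 5′ to 3′ on the strand of the gene to show the match in its setting, with the half-site in capitals.
Trp53, chr11:69580274-69580303, plus strand: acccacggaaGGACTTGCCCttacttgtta
Mdm2, chr10:117710925-117710954, minus strand: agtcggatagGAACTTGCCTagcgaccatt
Ccng1, chr11:40755452-40755481, minus strand: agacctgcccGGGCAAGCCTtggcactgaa
Aen, chr7:78895927-78895956, plus strand: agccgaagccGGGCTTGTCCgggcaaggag
Sesn1, chr10:41887256-41887285, plus strand: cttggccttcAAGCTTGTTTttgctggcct

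The half-site began 75 bases before the start in Trp53, 186 in Mdm2 and 185 in Ccng1, and 121 and 173 bases before one of the 2 listed starts in Aen and Sesn1. When both half-sites were required side by side, the best window of Ccng1 matched 19 of 20 letters, a score reached by 29 of the 32851 promoters (0.0883%). The best windows of Trp53, Aen and Sesn1 matched 17 letters, a score that 6.29% of promoters reached or passed. Btg2 matched 16, and Mdm2 and Phlda3 matched 15. In the wider lists of p53 target genes described later, 3 more genes reached 19 letters. They were picked after that search and are shown with Ccng1 because their transcripts are followed below. Capitals mark letters that match.
Ccng1, chr11:40755462-40755481, minus strand: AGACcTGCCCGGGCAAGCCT
Cdkn1a, chr17:29090928-29090947, plus strand: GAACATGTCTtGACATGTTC
Rps27l, chr9:66946296-66946315, plus strand: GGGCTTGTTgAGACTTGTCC
Gtse1, chr15:85859945-85859964, plus strand: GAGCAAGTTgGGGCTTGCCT
A match describes the letters in this window. Binding of p53 was not measured.

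Libraries held 62017933 to 84314201 counted reads, and the 9 genes drew 252 to 12318 reads in a library. The lowest count was that of Phlda3 in PH-CM replicate 2. For genes with few reads, the part of counting noise in the precision was not separated from the spread between cultures. All 8 macrophage markers (Csf1r, Adgre1, Cd68, Itgam, Lyz2, Fcgr1, Mertk and Cd14) were tested, with summed levels of 11818 to 12613 CPM (counts scaled to library size by TMM) in UNX, 19014 to 19970 in CO-CM and 21462 to 23275 in PH-CM. Lyz2 made up more than any other marker of this sum, and the means of Cd14, Itgam and Fcgr1 were lower in CO-CM than in UNX. Of the fibroblast markers, 6 of 8 passed the filter, with sums of 197 to 249, 267 to 318 and 249 to 335 CPM, while Lum and Thy1 were under 1 CPM in each group mean. Neutrophil markers summed to between 1.77 and 4.32 CPM with Ly6g at 0 in every library. Lymphocyte and dendritic cell markers summed to 9.60 to 36.6 CPM in UNX, 10.8 to 13.8 in CO-CM and 5.92 to 10.1 in PH-CM. Most of these sums was Ighm, with means of 24.8, 11.5 and 7.39 CPM. The other 7 markers were under 1 CPM in every library, with Cd3g and Ncr1 at 0. The part of these differences in the results below was not tested.

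Compared with UNX, Trp53 fell under both media, Trp53inp1 and Btg2 rose under both, and Aen fell under both. Phlda3 fell under PH-CM, and Sesn1 rose under CO-CM. A gene was called, and is said to have risen or fallen, at an FDR (Benjamini-Hochberg adjusted p over the 11950 genes) of at most 0.05 in edgeR's quasi-likelihood test and a fold change of at least 1.2. All log2 fold changes below come from that fit and are given with their SE. Both comparisons with UNX use the same untreated libraries, so their values are related and are set side by side without a test of their likeness. Overlap of libraries is described gene by gene and adds no separate support, as the share of all genes without overlap was not counted.

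Trp53 (ENSMUSG00000059552, chr11:69580359-69591873, plus strand, 7 merged exons) was at 114, 95.7 and 99.1 CPM in UNX, 66.0, 65.2 and 71.2 CPM in CO-CM and 73.0, 70.8 and 72.1 CPM in PH-CM. Every library with conditioned medium was below every untreated library, and the 2 media overlapped. The log2 fold change was -0.61 ± 0.066 under CO-CM (FDR = 1.53e-05) and -0.52 ± 0.066 under PH-CM (FDR = 4.02e-05). In bulk RNA, fewer cells that express a gene and less RNA per cell cannot be told apart. PH-CM against CO-CM gave 0.09 ± 0.066 (FDR = 0.297), which was not called.

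Mdm2 (ENSMUSG00000020184, chr10:117688875-117710758, minus strand) encodes the ligase that degrades p53 and is itself a p53 target. Its levels were 152.2, 139 and 143 CPM in UNX, 134, 132 and 125 CPM in CO-CM and 163, 152.5 and 153 CPM in PH-CM. The groups did not overlap in any pair, and Mdm2 was lowest under CO-CM and highest under PH-CM, but the differences were small and none was called. The closest libraries of UNX and PH-CM were at 152.2 and 152.5 CPM. In the authors' RPKM, which are not scaled by TMM, these 2 groups overlapped, at 27.9 to 31.3 and 29.3 to 32.2. PH-CM against CO-CM gave a log2 fold change of 0.26 ± 0.051 (FDR = 0.00236), a fold of 1.1997 that lies just under the threshold of 1.2, and 9 of 19 alternative analyses called it. Against UNX, the values were -0.15 ± 0.051 for CO-CM (FDR = 0.0207) and 0.11 ± 0.051 for PH-CM (FDR = 0.0692).

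Btg2 (ENSMUSG00000020423, chr1:134075170-134079120, minus strand) encodes an antiproliferative protein that binds the CCR4-NOT deadenylase. It was at 5.15, 8.61 and 5.82 CPM in UNX, 9.78, 16.7 and 11.0 CPM in CO-CM and 20.5, 33.0 and 25.5 CPM in PH-CM. The groups formed 3 steps without overlap, and replicate 2 was highest in each group. Btg2 rose by 0.93 ± 0.25 (log2) under CO-CM (FDR = 0.00707) and by 2.01 ± 0.25 under PH-CM (FDR = 3.51e-05), which is a 4.02-fold increase. Between the media the log2 fold change, PH-CM over CO-CM, was 1.08 ± 0.24 (FDR = 0.00557).

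Ccng1 (ENSMUSG00000020326, chr11:40748552-40755311, minus strand) encodes cyclin G1, which brings the phosphatase PP2A to MDM2. Its levels were 136, 128 and 124 CPM in UNX, 118, 112 and 100.5 CPM in CO-CM and 112, 114 and 98.6 CPM in PH-CM. All 6 libraries with conditioned medium were below the untreated ones, yet the fold changes did not reach 1.2. The log2 values were -0.23 ± 0.072 for CO-CM (FDR = 0.0142) and -0.26 ± 0.072 for PH-CM (FDR = 0.00721), and of 19 alternatives 5 called the first and 7 the second. PH-CM against CO-CM gave -0.03 ± 0.072 (FDR = 0.796).

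Sesn1 (ENSMUSG00000038332, chr10:41809935-41908424, plus strand) encodes sestrin 1, which restrains mTORC1 when leucine is scarce. It was at 73.9, 101 and 82.0 CPM in UNX, 145, 167 and 147 CPM in CO-CM and 88.4, 92.2 and 74.6 CPM in PH-CM. The CO-CM libraries stood above all others, whereas UNX and PH-CM overlapped. Sesn1 rose by 0.84 ± 0.11 under CO-CM (FDR = 8.66e-05) while PH-CM over CO-CM gave -0.85 ± 0.12 (FDR = 0.000264). For PH-CM against UNX the log2 fold change was -0.01 ± 0.11 (FDR = 0.935). The gene model overlaps 9930024M15Rik, with which it shares 0 exon bases.

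Trp53inp1 (ENSMUSG00000028211, chr4:11156431-11174379, plus strand) encodes a stress-induced protein that acts in the p53 response and in autophagy. It was at 12.3, 19.3 and 15.2 CPM in UNX, 49.4, 50.3 and 47.0 CPM in CO-CM and 50.6, 54.5 and 50.0 CPM in PH-CM. Every treated library was above every untreated one, and the media overlapped. The increase was 1.65 ± 0.13 (log2) under CO-CM (FDR = 1.34e-06) and 1.73 ± 0.13 under PH-CM (FDR = 6.51e-07), or 3.13-fold and 3.31-fold. PH-CM against CO-CM gave 0.08 ± 0.12 (FDR = 0.64).

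Aen (ENSMUSG00000030609, chr7:78895854-78911209, plus strand) encodes a nuclease that degrades DNA in apoptosis. It was at 38.6, 26.6 and 30.8 CPM in UNX, 16.8, 12.9 and 14.7 CPM in CO-CM and 18.7, 12.9 and 15.1 CPM in PH-CM. The untreated libraries lay above all the others, replicate 1 was highest in each group, and the media overlapped. Aen fell by 1.11 ± 0.16 on the log2 scale under CO-CM (FDR = 0.000134) and fell by 1.04 ± 0.16 under PH-CM (FDR = 0.000178). The value for PH-CM against CO-CM was 0.07 ± 0.16 (FDR = 0.761).

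Phlda3 (ENSMUSG00000041801, chr1:135766119-135769136, plus strand) encodes a small protein with a pleckstrin homology domain that competes with AKT for membrane lipids. Its levels were 7.78, 8.84 and 8.89 CPM in UNX, 10.0, 7.63 and 7.31 CPM in CO-CM and 6.10, 4.06 and 5.03 CPM in PH-CM. The PH-CM libraries were below all others, and UNX and CO-CM overlapped. Phlda3 fell by 0.75 ± 0.16 on the log2 scale under PH-CM against UNX (FDR = 0.00156), and between the media PH-CM over CO-CM gave -0.71 ± 0.16 (FDR = 0.00561). CO-CM against UNX gave -0.03 ± 0.16 (FDR = 0.86).

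Zmat3 (ENSMUSG00000027663, chr3:32334792-32366014, minus strand) encodes a zinc finger protein that binds RNA and alters splicing. It was at 46.8, 41.7 and 41.9 CPM in UNX, 40.5, 34.7 and 34.2 CPM in CO-CM and 40.0, 37.8 and 38.4 CPM in PH-CM. All treated libraries were below the untreated ones, by less than the fold threshold. The log2 fold changes were -0.25 ± 0.073 for CO-CM (FDR = 0.0103) and -0.16 ± 0.073 for PH-CM (FDR = 0.0622), and 6 of 19 alternatives called the first. PH-CM against CO-CM gave 0.09 ± 0.073 (FDR = 0.377).

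**Figure D1:**
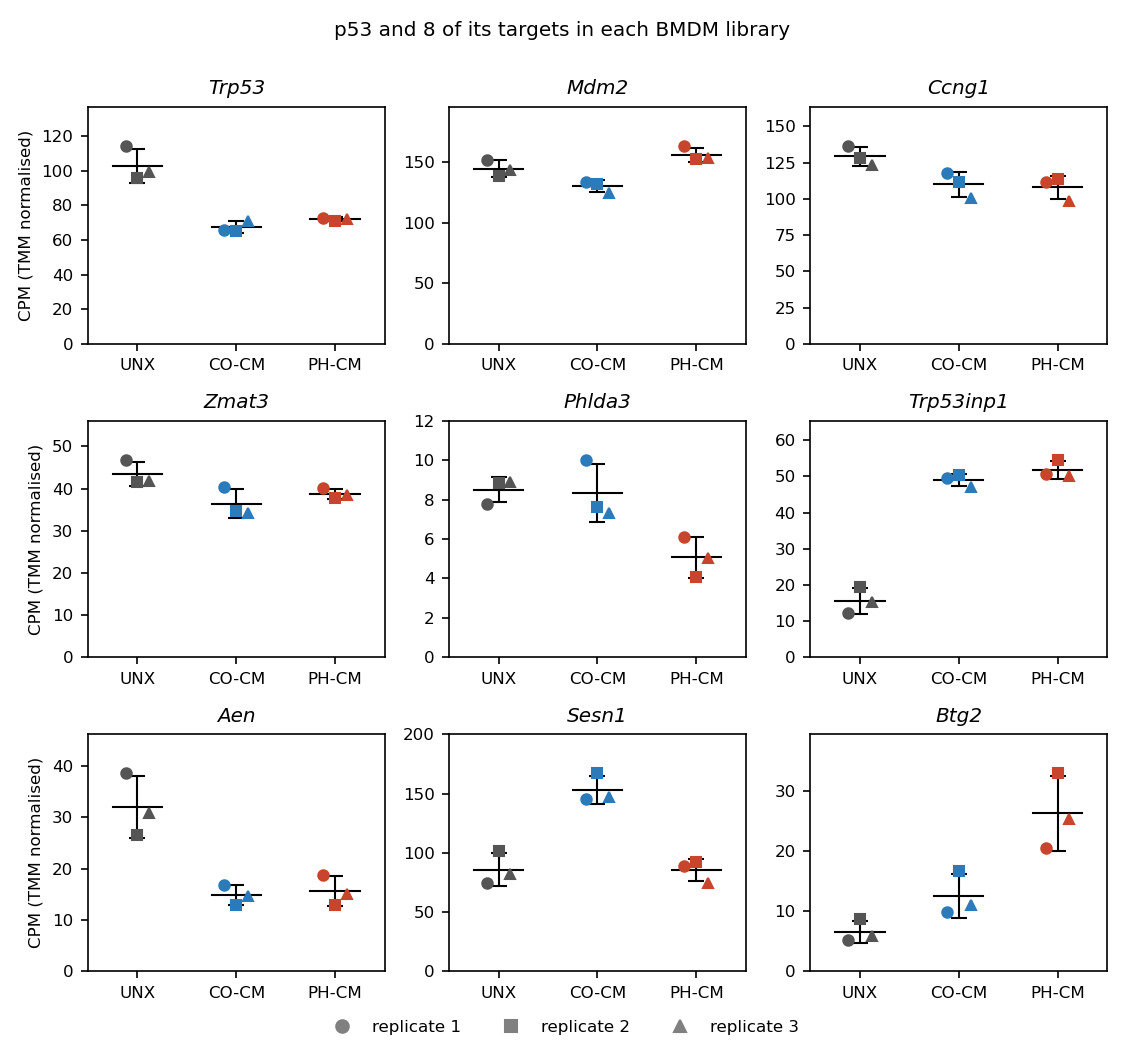
TMM-normalised CPM of p53 and 8 of its targets in each of the 9 libraries, on linear axes from 0. Points are libraries with the replicate given by the symbol, the line is the group mean and the bar 1 SD (n = 3). Trp53 and Aen are lower and Trp53inp1 is higher in all 6 treated libraries, Sesn1 is high in the 3 CO-CM libraries, Phlda3 is low in the 3 PH-CM libraries, and Btg2 rises in 3 steps.

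The direction thus differed from gene to gene, although all 8 targets are known for induction by p53. Against UNX, PH-CM gave 2 higher, 3 lower and 4 not called among the 9 genes (55.6% called), with 63.0% of all tested genes called in that comparison, 31.3% higher and 31.7% lower. CO-CM gave 3 higher, 2 lower and 4 not called (55.6%), with a background of 57.0% called, 28.0% higher and 28.9% lower. Between the media, 1 gene was higher under PH-CM, 2 were lower and 6 were not called (33.3%), with 27.1% of all genes called, 12.2% higher and 15.0% lower. In each comparison the share of the 9 genes that was called lay near that of all genes. The median log2 fold change of the 9 was -0.16 under PH-CM, -0.15 under CO-CM and 0.08 for PH-CM against CO-CM, where those of all tested genes were 0.0072, 0.00024 and -0.0064.

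**Figure D2:**
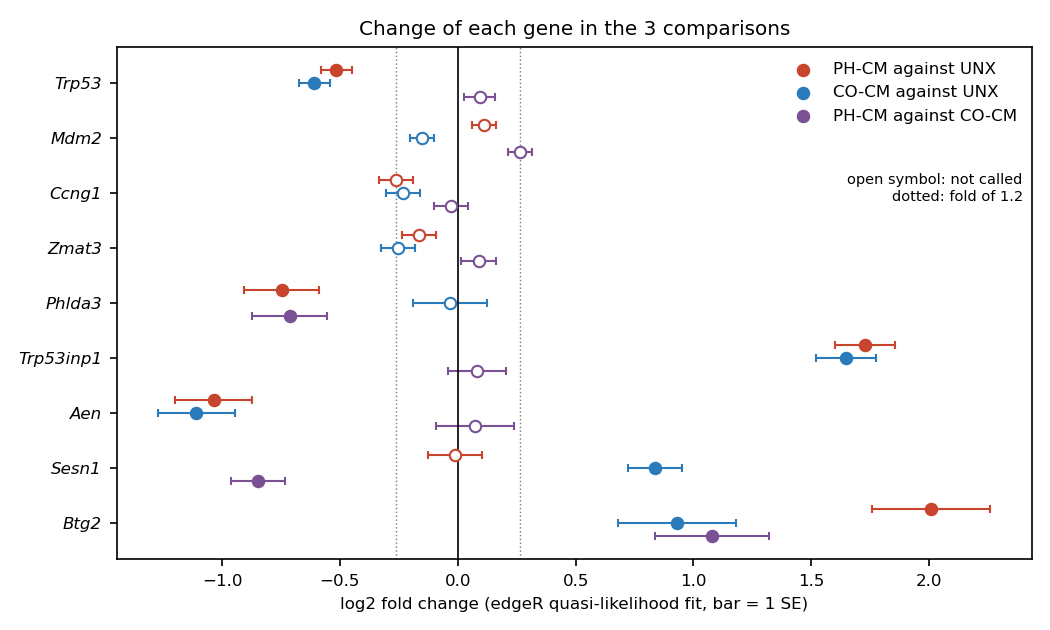
Log2 fold change of each gene in the 3 comparisons (horizontal axis, edgeR quasi-likelihood fit, bars 1 SE). Filled symbols were called, open symbols were not, and dotted lines mark a fold of 1.2. Trp53 and Aen lie left of 0 under both media and Trp53inp1 and Btg2 right of it, while Sesn1 and Phlda3 differ between the media.

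Levels of different genes can be compared only per length, and for this the deposited RPKM (reads scaled to exon length and to the counted reads of a library) were used. In UNX, Ccng1 had the highest level, with a mean RPKM of 37.9 ± 2.4 (SD, n = 3), followed by Mdm2 at 29.3 ± 1.8, Trp53 at 26.2 ± 2.9 and Sesn1 at 22.1 ± 3.4. Mdm2 and Trp53 overlapped, as did Trp53 and Sesn1. The other genes were lower, with Aen at 5.68, Phlda3 at 5.60, Zmat3 at 3.91, Trp53inp1 at 2.48 and Btg2 at 2.44 RPKM. Among these, the libraries of Aen and Phlda3 overlapped, and so did those of Trp53inp1 and Btg2.

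Under CO-CM, Sesn1 came first at 37.6 ± 2.5 RPKM, above Ccng1 at 30.7, Mdm2 at 25.1 and Trp53 at 16.3 RPKM, with no overlap between these neighbours. Trp53inp1 followed at 7.40 RPKM, and Phlda3 at 5.24 RPKM overlapped Btg2 at 4.44. Zmat3 at 3.13 and Aen at 2.51 were last, and their closest libraries were both at 2.91. Under PH-CM, Mdm2 and Ccng1 led at 30.4 RPKM each and overlapped, followed by Sesn1 at 21.1 and Trp53 at 17.6 RPKM. Btg2, which had the lowest mean in UNX, stood at 9.46 RPKM and overlapped Trp53inp1 at 7.89. Zmat3 at 3.35, Phlda3 at 3.21 and Aen at 2.66 RPKM closed the order, with overlap between neighbours.

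Mdm2 and Trp53 have opposing roles, and their ratio within a library was examined after the levels had been seen, as a description without a test. The RPKM of Mdm2 was 1.06, 1.15 and 1.15 times that of Trp53 in UNX, 1.62, 1.61 and 1.39 times in CO-CM and 1.78, 1.71 and 1.69 times in PH-CM. The 3 groups did not overlap. Trp53, by which each ratio is divided, fell under both media, while Mdm2 itself was not called. Ratios of Ccng1, also not called, were 1.37 to 1.54 in UNX, 1.62 to 2.06 in CO-CM and 1.57 to 1.85 in PH-CM. Those of Zmat3 and Btg2 were likewise higher in every treated library than in any untreated one. For Phlda3 and Sesn1, UNX overlapped PH-CM. Trp53inp1 had ratios to Trp53 of 0.0674 to 0.126 in UNX, 0.412 to 0.482 in CO-CM and 0.433 to 0.481 in PH-CM. Aen moved the other way, with 0.194 to 0.236 in UNX against 0.138 to 0.178 and 0.127 to 0.179.

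**Figure D3:**
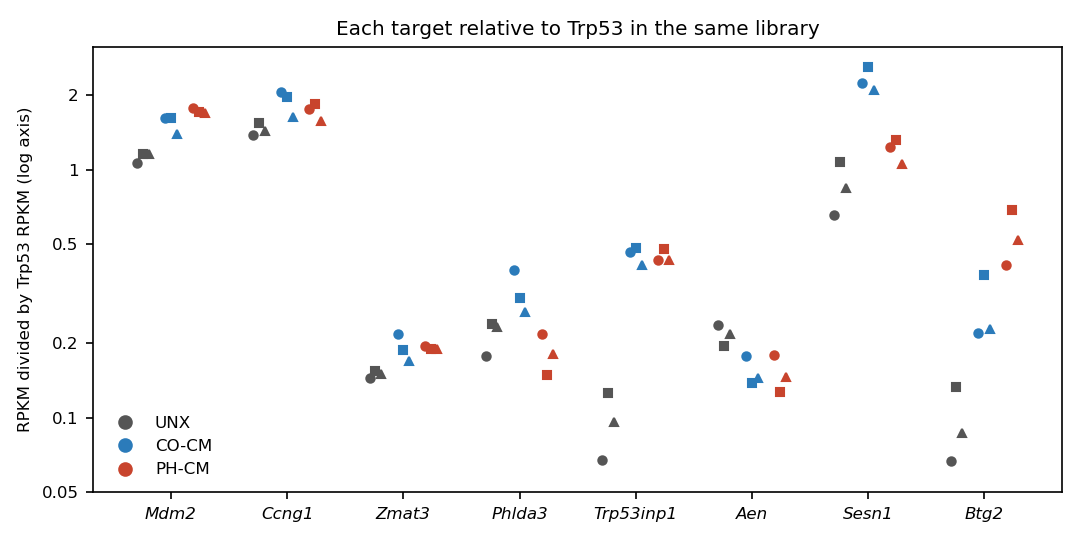
RPKM of each target divided by that of Trp53 in the same library (log axis), with the 3 libraries of each group as separate points. The ratio of Mdm2 is at 1.06 to 1.15 in UNX and 1.39 to 1.78 in the 6 treated libraries. Ratios of Ccng1, Zmat3, Trp53inp1 and Btg2 are also higher in all treated libraries, and Aen is the gene whose ratio is lower in all of them.

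A wider list of 43 p53 target genes was then examined, of which 38 were tested and Perp, Eda2r, Zfp365, Ddit4l and Gls2 were below the filter. Under PH-CM 11 were higher and 18 lower than in UNX (median log2 fold change -0.20), where 31.3% and 31.7% of all tested genes were called higher and lower. Under CO-CM 12 were higher and 15 lower (median -0.11), with 28.0% and 28.9% of all genes. Between the media, 7 were higher and 10 lower under PH-CM, with a median of -0.01 and 12.2% and 15.0% of all genes.

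Among growth arrest genes of that list, Cdkn1a, which encodes the CDK inhibitor p21 and is the best known p53 target, was at 293 ± 28 CPM in UNX, 123 ± 9.8 in CO-CM and 185 ± 17 in PH-CM (SD, n = 3). It fell by 1.26 ± 0.089 on the log2 scale under CO-CM and fell by 0.67 ± 0.088 under PH-CM, and the difference between the media, PH-CM over CO-CM, was 0.59 ± 0.088 (FDR = 0.000498). The stress-induced cytokine Gdf15 was at 64.9 ± 15 CPM in UNX, 15.2 ± 2.5 in CO-CM and 16.3 ± 3.8 in PH-CM. Its log2 fold changes were -2.10 ± 0.20 under CO-CM and -2.00 ± 0.20 under PH-CM (FDR = 6.47e-06 and 6.88e-06). Rps27l, shown above for its promoter match, fell from 61.8 ± 1.8 CPM to 39.7 ± 2.0 in CO-CM and 35.3 ± 0.48 in PH-CM. Of the 4 genes picked for their 19 matching letters, 3 were called lower under both media and Ccng1 was not called. For each medium alone, 31.7% of all genes were called lower with PH-CM and 28.9% with CO-CM. The share of all genes called lower under both was not counted.

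Several targets of the list are themselves proliferation genes. Gtse1, which acts in G2 and on microtubules, fell by 2.41 ± 0.12 on the log2 scale under CO-CM and fell by 2.91 ± 0.12 under PH-CM. Ckap2, a spindle protein, fell by 1.99 ± 0.13 and 2.69 ± 0.14, and Psrc1, also a spindle protein, fell by 1.32 ± 0.13 and 2.33 ± 0.14.
Pmaip1, which encodes NOXA, fell by 0.68 ± 0.14 under CO-CM and fell by 0.62 ± 0.14 under PH-CM. Bbc3, which encodes PUMA, rose by 0.54 ± 0.095 under CO-CM (FDR = 0.000506) whereas PH-CM gave 0.11 ± 0.096 (FDR = 0.331). Fas, the death receptor, rose by 0.94 ± 0.11 under PH-CM and by 0.39 ± 0.11 under CO-CM, the second of which was lost without UNX replicate 3 (log2 0.29, FDR = 0.0561). Bax had log2 fold changes of -0.24 ± 0.047 and -0.10 ± 0.047 and was not called, though 5 of 19 alternatives called the first. Of other cell death genes on the list, named after their values were seen, the death receptor gene Tnfrsf10b fell by 1.39 ± 0.18 under CO-CM and fell by 0.84 ± 0.18 under PH-CM. Pidd1, a death domain protein gene, fell by 1.67 ± 0.12 and 2.29 ± 0.13, and Apaf1, of the apoptosome, rose by 0.27 ± 0.052 and 0.49 ± 0.052. The first value of Apaf1 lay near the fold threshold, and these added genes were not followed in the alternative fits.

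Ddit4, which like the sestrins restrains mTORC1, was at 4.47 ± 0.62 CPM in UNX, 4.71 ± 0.40 in CO-CM and 14.7 ± 1.0 in PH-CM. It rose by 1.72 ± 0.11 on the log2 scale under PH-CM (FDR = 3.10e-07), differed between the media by 1.64 ± 0.11 (FDR = 3.13e-06), and had a log2 fold change of 0.07 ± 0.12 under CO-CM (FDR = 0.587). The kinase gene Plk2 fell by 1.34 ± 0.18 under PH-CM, from 112 ± 14 to 44.4 ± 7.6 CPM, with -0.12 ± 0.18 under CO-CM (FDR = 0.556) and -1.22 ± 0.18 for PH-CM against CO-CM. Ephx1, an epoxide hydrolase, fell by 0.85 ± 0.22 under PH-CM and had a log2 fold change of 0.38 ± 0.21 under CO-CM (FDR = 0.128). The CO-CM value was called with a block for the replicate number (0.37, FDR = 0.000288), without CO-CM replicate 1 (0.57, FDR = 0.0189) and with no filter on low counts (0.34, FDR = 0.0371). The kinase gene Plk3 fell by 1.55 ± 0.15 under CO-CM and fell by 0.74 ± 0.14 under PH-CM.
Among the genes with the largest increase, Pltp, a phospholipid transfer protein, rose by 1.00 ± 0.11 under CO-CM and 0.93 ± 0.11 under PH-CM. The noncoding RNA gene Trp53cor1 rose by 0.95 ± 0.18 under PH-CM and by 0.56 ± 0.18 under CO-CM, and the second call was lost when UNX replicate 2 or 3 or CO-CM replicate 1 was left out (log2 0.47 to 0.51, FDR = 0.0571 to 0.0685). Xpc, a sensor of DNA damage, rose by 0.71 ± 0.087 and 0.89 ± 0.088, and Zfp385a, a zinc finger gene, rose by 0.74 ± 0.073 and 0.45 ± 0.073.

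Of 30 regulators of p53, all tested, 6 were higher and 12 lower under PH-CM (median log2 fold change -0.12) and 6 higher and 12 lower under CO-CM (median -0.14), with 2 higher and 6 lower between the media. The called regulators, 18 of 30 under each medium, stand beside 63.0% of all tested genes called with PH-CM and 57.0% with CO-CM. By direction, 31.3% of all tested genes were higher and 31.7% lower with PH-CM, and 28.0% and 28.9% with CO-CM. Between the media 27.1% of all tested genes were called, 12.2% higher and 15.0% lower. Chek1, the checkpoint kinase that phosphorylates p53, went from 17.7 ± 1.2 CPM in UNX to 1.79 ± 0.31 in CO-CM and 0.757 ± 0.13 in PH-CM, with log2 fold changes of -3.30 ± 0.14 and -4.54 ± 0.16. Cdkn2a, whose ARF product blocks MDM2, fell by 1.56 ± 0.15 and 2.20 ± 0.15. Npm1, the nucleolar protein that binds ARF, fell by 0.88 ± 0.049 and 1.17 ± 0.049. The gene-level counts do not separate the ARF and p16 transcripts of Cdkn2a.
Mdm4, the paralog of Mdm2 that blocks p53 transactivation, was at 47.6 ± 3.5, 52.6 ± 3.5 and 46.1 ± 2.4 CPM in UNX, CO-CM and PH-CM, and was not called in any comparison. Wrap53, which lies next to Trp53 and is transcribed from the opposite strand, fell by 0.30 ± 0.089 under CO-CM and fell by 0.33 ± 0.089 under PH-CM, the first of which was lost with upper-quartile factors (-0.23). Setd7, a lysine methyltransferase, rose by 1.17 ± 0.060 and 1.30 ± 0.061, Cul9, a cytoplasmic partner of p53, rose by 0.84 ± 0.057 and 0.76 ± 0.057, and Trp53bp2, which encodes a protein that binds p53, rose by 0.32 ± 0.063 and 0.69 ± 0.063, the first of which fell short of the fold threshold without CO-CM replicate 1 (0.26) or with library size alone (0.25). Hipk2, a kinase that phosphorylates p53, rose by 0.72 ± 0.092 under CO-CM, with 0.15 ± 0.092 under PH-CM (FDR = 0.164) and -0.57 ± 0.092 for PH-CM against CO-CM. Pml, the nuclear body protein, fell by 0.68 ± 0.063 under CO-CM and by 0.28 ± 0.063 under PH-CM. The call of Pml under PH-CM was lost when its replicate 1 (-0.26) or replicate 3 (-0.25) was left out, and with upper-quartile factors (-0.25).

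The 23 cell cycle genes of a list known for repression by p53 through p21 all fell, 23 of 23 under PH-CM (median log2 fold change -3.08) and 23 of 23 under CO-CM (median -2.53). Between the media, 21 were lower under PH-CM with a median of -0.69. The shares of all tested genes called lower were 31.7% with PH-CM, 28.9% with CO-CM and 15.0% between the media. Rrm2, for nucleotide supply, fell from 187 ± 11 CPM in UNX to 21.9 ± 5.5 in CO-CM and 10.1 ± 2.7 in PH-CM, and Mcm5, for replication, from 251 ± 14 to 28.6 ± 8.0 and 13.8 ± 2.4 CPM. Mybl2, a transcription factor of the cycle, fell from 44.2 ± 2.7 to 4.18 ± 0.96 and 2.60 ± 0.29 CPM. In the same libraries Trp53 and Cdkn1a were lower than in UNX. The part of the fall in cycling genes in the values of Trp53 and its targets was not tested. Nor was any part of p53 or p21 in that fall tested.

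Of 15 relatives of the 9 genes, 12 were tested, and Trp63, Trp73 and Phlda2 were below the filter. Under PH-CM 9 were higher and 1 lower (median log2 fold change 0.50), under CO-CM 6 were higher and 1 lower (0.25), and between the media 7 were higher and 0 lower (0.34). Of all tested genes, 31.3% were called higher and 31.7% lower with PH-CM, 28.0% and 28.9% with CO-CM, and 12.2% and 15.0% between the media. Btg1, the closest relative of Btg2, was at 122 ± 20 CPM in UNX, 229 ± 38 in CO-CM and 548 ± 53 in PH-CM, with log2 fold changes of 0.91 ± 0.14 and 2.17 ± 0.14 and a difference between the media of 1.26 ± 0.14 (FDR = 6.35e-05). Tob1, of the same antiproliferative family, rose by 1.19 ± 0.11 under PH-CM. Its value of 0.31 ± 0.11 under CO-CM was called, and lost that call when UNX replicate 1 or 3 or CO-CM replicate 2 or 3 was left out (log2 0.18 to 0.31, FDR = 0.0536 to 0.097) and with library size alone (0.24).
Tob2 rose by 0.49 ± 0.076 under PH-CM, with 0.19 ± 0.076 under CO-CM, and PH-CM over CO-CM gave 0.30 ± 0.076, a call lost without CO-CM replicate 3, at a log2 value of 0.24. Btg3 rose by 0.59 ± 0.22 under PH-CM (FDR = 0.0306), though its libraries overlapped those of UNX and the call was lost when replicate 2 or 3 of either group was left out (log2 0.39 to 0.60, FDR = 0.0644 to 0.121).

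Trp53inp2, which acts in autophagy like Trp53inp1, rose by 0.95 ± 0.077 under CO-CM and 1.41 ± 0.078 under PH-CM, from 120 ± 14 CPM in UNX. Ccng2, the relative of Ccng1, rose by 1.04 ± 0.13 and 1.15 ± 0.13, while Ccng1 was not called. Of the sestrins, Sesn3 rose by 0.45 ± 0.062 under PH-CM and had 0.17 ± 0.062 under CO-CM. Sesn2 had log2 fold changes of 0.29 ± 0.080 under PH-CM, a call lost without UNX replicate 2 (0.20) or PH-CM replicate 2 (0.22), with library size alone (0.23), with no filter (0.24) and with filterByExpr (0.25), and -0.20 ± 0.080 under CO-CM, and PH-CM over CO-CM gave 0.48 ± 0.081 (FDR = 0.000999). Sesn1 differed between the same media by -0.85.
Phlda1, a relative of Phlda3, went from 3.45 ± 0.38 CPM in UNX to 0.876 ± 0.067 in CO-CM and 2.44 ± 0.28 in PH-CM. Its log2 fold changes were -1.97 ± 0.15 under CO-CM and -0.50 ± 0.14 under PH-CM, and PH-CM over CO-CM gave 1.48 ± 0.16. Zmat1 rose by 0.49 ± 0.099 and 0.52 ± 0.10. Isg20, an exonuclease related to Aen, rose by 0.72 ± 0.21 under CO-CM and had 0.38 ± 0.21 under PH-CM (FDR = 0.13).

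Across the 9 libraries, which fall into 3 groups that set much of any correlation, the log2 CPM of Trp53 had a Pearson r of 0.956 with Aen and -0.976 with Trp53inp1. The genes most like Trp53 among all those tested were Id1 (r = 0.993), Srrt (r = 0.993) and Urb2 (r = 0.991). Id1 had log2 fold changes of -3.57 ± 0.26 under CO-CM and -2.99 ± 0.26 under PH-CM. For Mdm2 they were Nup98 (r = 0.986), Map3k3 (r = 0.978) and Dip2b (r = 0.973). Between the media Nup98 and Map3k3 were called higher with PH-CM, by 0.38 ± 0.055 and 0.32 ± 0.052 on the log2 scale.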

How the data were processed

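RNA-Seq counts of 9 BMDM libraries were analysed. Reads were trimmed with AfterQC, aligned to GRCm38 with STAR and counted on exons with featureCounts 1.6.2 by the authors, and the deposited counts are raw reads per gene. No strand or read pair option is described, so genes on opposite strands can share reads. Between 81.4% and 83.8% of counts under 20 were even, so mates were taken to be counted separately. The deposited RPKM values were computed by the authors from these counts per exon length and library. Their comparison tables hold the authors' fold changes and p-values and were not used.

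Groups came from the labels. Genes with CPM above 1 in at least 3 libraries (11950) were normalised by TMM. They were compared in one edgeR 4.0.16 quasi-likelihood fit of all 9 libraries in R 4.3.3, which was first run on simulated data. That simulation changed 200 genes and held no replicate effect, so it does not cover data with as many changes as these. With 3 libraries against 3, an exact two-sided test cannot go below p = 0.1. The genes and lists were chosen with earlier results of these data known. Named genes are the 9 genes, fixed pathway genes, the tested relatives, the called list genes with the largest changes (3 in each direction per comparison) and the 3 genes most like Trp53 and Mdm2. Rps27l was added for its promoter, and 1 named gene is not reported here. Libraries that share a replicate number deviated together from their group means (r from 0.276 to 0.484 in 9 pairs), so the pairing was taken as real, but the values given come from the fit without a block and the blocked fit is an alternative. Neither the labels nor the methods tie a number to a culture. Libraries of one group differed beyond sampling noise (chi-square per gene 8.91 to 46.3). Alternatives covered tests (edgeR exact, DESeq2 1.42.0), scaling, filters, fold thresholds, the replicate block, and each library left out. Counts divided by 2 were added after seeing the data. Gene positions come from GENCODE M21 on GRCm38.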

Additional observations from a re-analysis of the deposited data

Results flagged for a closer look

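For 3 of the 9 genes the effect of PH-CM against UNX differed from that of CO-CM against UNX, as tested by the direct comparison of the media in edgeR's quasi-likelihood fit. Sesn1 had log2 fold changes of -0.01 under PH-CM and 0.84 under CO-CM, a difference of -0.85 (FDR = 0.000264). Phlda3 had -0.75 under PH-CM and -0.03 under CO-CM, a difference of -0.71 (FDR = 0.00561). Btg2 rose under both media, by 2.01 and 0.93, and differed by 1.08 (FDR = 0.00557). These genes were listed because they were called between the media, as were 27.1% of all genes tested. In each of these direct comparisons the 3 libraries of one medium did not overlap the 3 of the other. This adds no separate support, because Mdm2, which was not called, did not overlap either. The share of all genes without overlap was not counted.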

How the results depend on the processing

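All log2 fold changes called for the 9 genes kept their direction and their call under the 19 alternative fits. A fold threshold of 2 moved the counts most. Under PH-CM it left 1 of the 9 genes lower, 1 target higher and 6 lower, 1 regulator higher and 3 lower, and 4 relatives higher and 0 lower. Under CO-CM it left 1 of the 9 genes higher and 1 lower, 0 targets higher and 8 lower, 1 regulator higher and 2 lower, and 1 relative higher. Between the media it left 0 of the 9 genes lower, 1 target higher and 3 lower, 0 regulators higher and 1 lower, 4 cell cycle genes lower and 2 relatives higher. Without a fold threshold, CO-CM gave 5 of the 9 genes and 2 relatives lower, and the media differed in 2 of the 9 genes and 6 regulators higher under PH-CM. Library size alone gave 4 of the 9 genes and 2 relatives lower under CO-CM, and no filter and filterByExpr also gave 4 of the 9. Library size alone, and a fit of only the 2 groups, gave 2 of the 9 genes higher under PH-CM than CO-CM. When 1 library was left out, the genes of the 9 that fell under CO-CM numbered 2 to 4 (4 without UNX replicate 3 or CO-CM replicate 1) and the relatives 1 to 2 (2 without UNX replicate 2). Those higher under PH-CM than CO-CM numbered 1 to 2 of the 9 (2 without any 1 of 7 libraries, all but CO-CM replicate 3 and PH-CM replicate 1) and 2 to 4 regulators (4 without CO-CM replicate 1 or PH-CM replicate 3).

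Reversed signs were confined to differences that were not called. With upper-quartile factors, Phlda3 (CO-CM) was 0.031, Sesn1 (PH-CM) 0.016 and Zmat1 (between the media) -0.0076. With 1 library left out, the log2 fold change under CO-CM ran from -0.19 to 0.053 in Phlda3, -0.046 to 0.14 in Ddit4, -0.0056 to 0.38 in Btg3 and -0.33 to 0.051 in Plk2, and under PH-CM from -0.12 to 0.11 in Sesn1. Between the media it ran from -0.089 to 0.036 in Ccng1, -0.072 to 0.19 in Aen, -0.065 to 0.17 in Pmaip1, -0.064 to 0.27 in Gdf15, -0.14 to 0.024 in Wrap53, -0.015 to 0.084 in Zmat1 and -0.18 to 0.029 in Pltp. The cause was not tested. The replicate block changed no call of the 9 genes (2 higher and 3 lower under PH-CM with the block), but called Ephx1 under CO-CM (0.37) and Id1 between the media (edgeR FDR = 0.00917). Id1 was also called with no filter (FDR = 0.00504), in a fit of only the 2 groups (0.0364) and without UNX replicate 1 (0.0308).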
